A study of Mus musculus with 18 samples.

Results

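The genes described here encode the repressor arm of the circadian clock, namely Per1, Per2, Per3, Cry1, Cry2, Nr1d1 and Nr1d2, together with Rora, whose protein opposes the REV-ERB proteins. They were picked by gene symbol from the deposited expression table and make up 8 of its 27131 genes. The choice was made with differences between the groups already known, so the HIF2 and WT values of these genes are given as a description, without p-values. Polyadenylated RNA was sequenced from colon tissue of untreated C57BL/6 mice. The first group, HIF2, held 9 libraries labelled Hif2a LFL, from mice described as overexpressing HIF2 in the colon. The second group, WT, held 9 libraries labelled Hif2a +/+. The design text writes the altered allele as LSL. The sources used here do not state its structure, the promoter or cell type that drives it, or the sex, age and time of day at which tissue was taken. HIF-2α, encoded by Epas1, is a hypoxia-inducible transcription factor, and the series title concerns epithelial HIF-2α in colon tumours. No label ties each library to its own mouse, so the spread behind the p-values below is that of libraries.

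In the clock of mammalian cells, the activators CLOCK (or NPAS2) and BMAL1, the product of Arntl, bind E-box sequences and switch on the Per, Cry and Nr1d genes. PER and CRY proteins then enter the nucleus and block these activators, which closes the main loop. In a second loop the REV-ERB proteins encoded by Nr1d1 and Nr1d2 repress Arntl, and ROR proteins compete with them for the same DNA element and activate it. Cells of the colon run this loop with a daily rhythm, so the level of each transcript depends on the hour of sampling. Because the hour is not stated, a change in the phase of the rhythm and a change in its mean level cannot be told apart, and neither can a difference in the hour of collection between the groups.

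The labelled tissue was checked against 6 colon markers with a value in the table, such as Car1 and Slc26a3, which summed to between 3338 and 9092 FPKM in HIF2 and between 6106 and 10799 FPKM in WT, with 4 of them lower in HIF2. Of 4 liver and lung markers, the lung markers Sftpc and Scgb1a1 were listed at 0 in every library. Apoa1 and Alb, listed here as liver markers, were not absent, and which cells their RNA came from was not tested. Apoa1 reached 47.9 FPKM in HIF2 and 148 FPKM in WT. Alb reached 12.7 FPKM in HIF2 and 1.19 FPKM in WT, with means of 1.85 and 0.589 FPKM. Of the 2 markers of this list that were tested, 1 was lower in HIF2. In each group 4 libraries held little RNA of Y-linked genes, namely HIF2 replicates 3, 6, 7 and 8 and WT replicates 5, 6, 7 and 8. HIF2 replicates 0 to 5 carried far more smooth muscle RNA than HIF2 replicates 6, 7 and 8 and than WT libraries other than replicate 3. Values with and without these libraries are given below. Such subsets also change the share of libraries low in Y-linked RNA, since HIF2 replicates 6, 7 and 8 were all low.

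The letters that clock proteins read were looked for in the 250 bases before the start of each gene, using RefSeq promoter sequences of the GRCm38.p6 build. A sequence was found for 7 of the 8 genes, all except Per2, and Per1 had more than 1 start. The 5 stretches below are shown because they hold an E-box (CACGTG), its variant the E-prime-box (CACGTT, here as AACGTG on the other strand) or the D-box (TTATGTAA), the DNA element of DBP, TEF and NFIL3. Each is written 5′ to 3′ on the strand of its gene, and the capitals mark the motif.
Per1, chr11:69098699-69098948, plus strand, E-box: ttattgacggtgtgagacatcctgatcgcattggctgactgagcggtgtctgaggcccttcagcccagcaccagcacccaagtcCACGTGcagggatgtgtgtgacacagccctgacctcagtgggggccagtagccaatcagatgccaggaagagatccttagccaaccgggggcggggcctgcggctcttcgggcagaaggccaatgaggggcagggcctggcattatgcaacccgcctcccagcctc
Cry1, chr10:85185055-85185304, minus strand, E-prime-box and then E-box: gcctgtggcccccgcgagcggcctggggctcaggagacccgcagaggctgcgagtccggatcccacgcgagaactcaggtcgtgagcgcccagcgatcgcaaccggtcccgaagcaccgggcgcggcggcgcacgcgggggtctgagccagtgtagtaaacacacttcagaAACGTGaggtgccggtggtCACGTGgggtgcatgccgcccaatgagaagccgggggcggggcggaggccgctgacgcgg
Cry2, chr2:92434070-92434319, minus strand, E-prime-box: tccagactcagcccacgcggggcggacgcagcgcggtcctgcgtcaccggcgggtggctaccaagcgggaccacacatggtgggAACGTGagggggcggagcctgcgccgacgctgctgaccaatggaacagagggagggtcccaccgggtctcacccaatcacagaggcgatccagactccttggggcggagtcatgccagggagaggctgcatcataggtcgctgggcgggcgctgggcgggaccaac
Nr1d1, chr11:98775378-98775627, minus strand, E-prime-box: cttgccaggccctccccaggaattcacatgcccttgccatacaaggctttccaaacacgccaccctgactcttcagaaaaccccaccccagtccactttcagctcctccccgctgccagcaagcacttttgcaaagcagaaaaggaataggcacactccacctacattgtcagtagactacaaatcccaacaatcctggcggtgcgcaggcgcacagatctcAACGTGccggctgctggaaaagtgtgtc
Per3, chr4:151044666-151044915, minus strand, 2 D-boxes: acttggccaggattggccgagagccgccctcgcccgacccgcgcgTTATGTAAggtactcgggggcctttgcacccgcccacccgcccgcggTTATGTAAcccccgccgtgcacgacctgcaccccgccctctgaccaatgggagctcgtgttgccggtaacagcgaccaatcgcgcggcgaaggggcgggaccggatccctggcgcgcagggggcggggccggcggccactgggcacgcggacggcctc
The E-box lay at -166 from the start in Per1 and at -60 in Cry1, and the E-prime-box at -79 in Cry1, -166 in Cry2 and -28 in Nr1d1. The D-boxes of Per3 lay at -205 and -158. Of 32851 promoters of the same length, searched on both strands, 6.02% held the E-box, 3.85% the E-prime-box and 0.819% the D-box. The letters ACGTG, the core that HIF proteins bind, were in 5 of the 7 genes (Per1, Cry1, Cry2, Nr1d1 and Rora) and in 16.6% of all promoters. Every E-box and every E-prime-box holds these letters, so the searches overlap. In Per1, Cry1, Cry2 and Nr1d1 the letters lay only inside the E-box or E-prime-box given above. Rora alone held them apart from these motifs. The letters AGGTCA, one part of the element that REV-ERB and ROR proteins read, were in Per1 and Nr1d2 and in 14.0% of all promoters, and the full element (RORE, in 0.332% of promoters) was in none of the 7 windows. The cAMP response element TGACGTCA, in 1.55% of promoters, was also in none. A match is a description of letters and does not show that a protein was bound.

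The REV-ERB genes were lower in HIF2 colon, and Nr1d2 was the one gene of the 8 whose groups were fully apart. Per2 and Per3 were lower in HIF2 with partial overlap. Per1, Cry1 and Cry2 overlapped almost completely between the groups, and Rora was higher in HIF2. Past the threshold of the fit across all genes (limma on log2(FPKM + 1), Benjamini-Hochberg adjusted p under 0.05), 4 of the 8 genes were lower (11.1% of the 13976 genes tested were lower) and 1 was higher (11.0% were higher), 22.1% in either direction. Since these differences were in view when the genes were picked, nothing is read from those counts. The median log2 difference over the 8 genes was -0.41, and it was -0.02 over all genes tested. All 8 genes passed the expression filter, a mean of at least 1 FPKM over the 18 libraries. Rora passed it through the HIF2 libraries, since its WT mean was under 1.

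**Figure D1:**
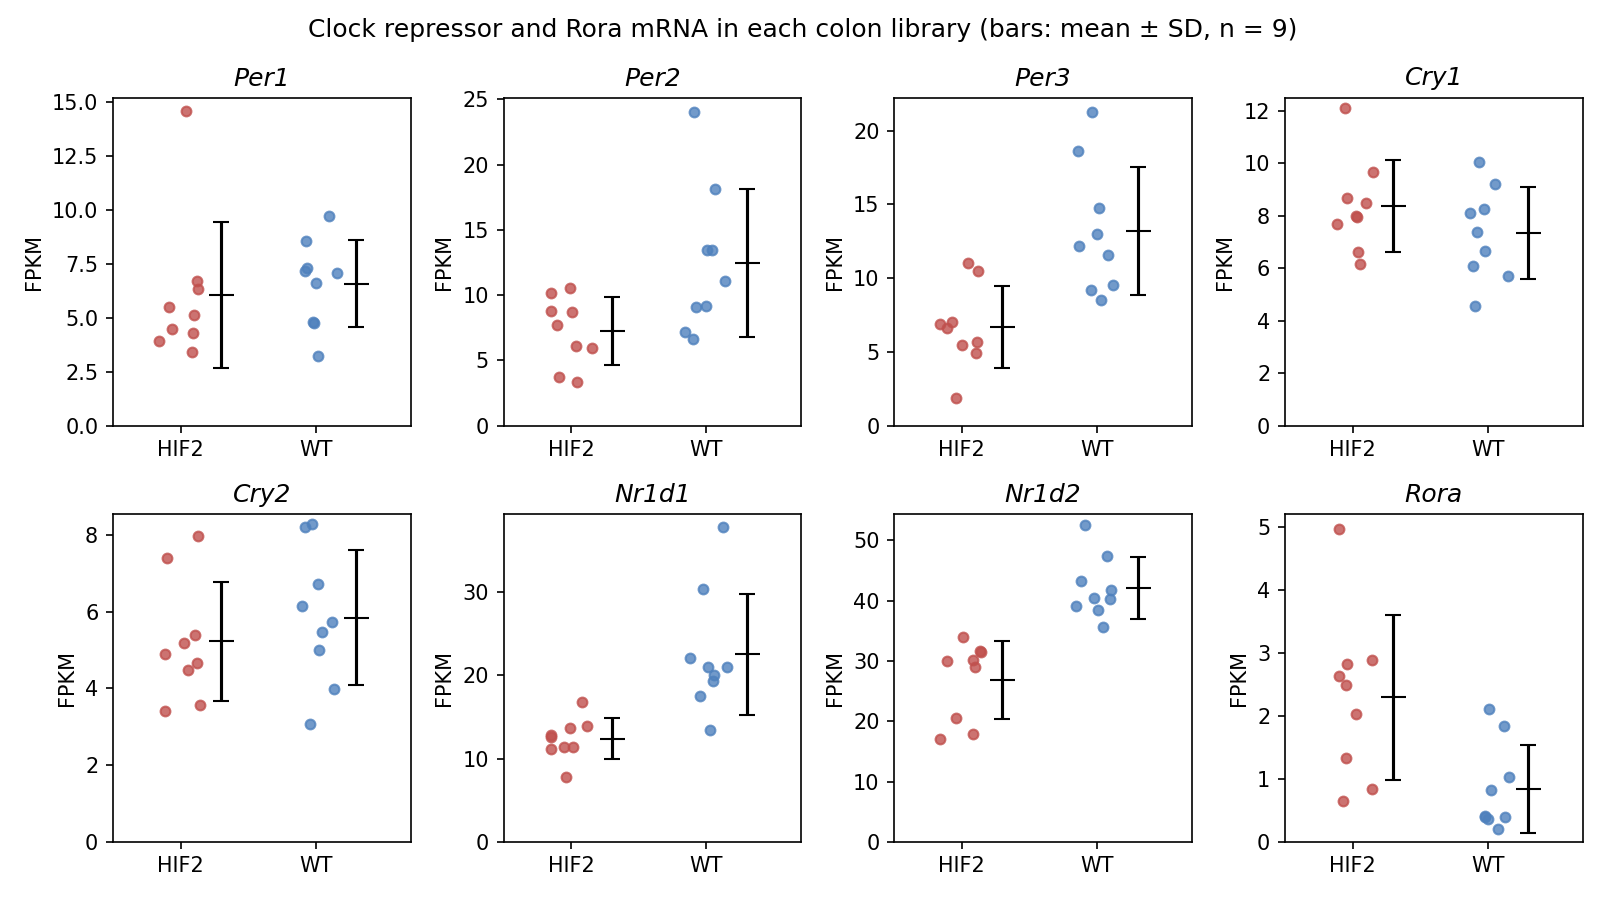
Level of each of the 8 clock genes in every colon library, in FPKM on a linear axis starting at 0, HIF2 in red and WT in blue, with the mean ± SD of 9 libraries beside the points. All 9 HIF2 values of Nr1d2 lie below all 9 WT values, 5 HIF2 values of Rora lie above the highest WT value, and 1 HIF2 library stands at 14.6 FPKM for Per1.

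Nr1d1 (chr11:98767932-98775333, minus strand, GRCm38) encodes REV-ERBα, a nuclear receptor that binds haem and represses transcription. In HIF2 colon it lay between 7.77 and 16.8 FPKM with a median of 12.6, against 13.5 to 37.8 FPKM with a median of 21.0 in WT colon. Most HIF2 libraries, 6 of 9, were below the lowest WT library, and 8 of 9 WT libraries were above the highest HIF2 library. The mean was 12.4 ± 2.46 FPKM in HIF2 and 22.5 ± 7.28 FPKM in WT (SD, n = 9 each), a log2 difference of -0.78 (SE 0.16) on the log2(FPKM + 1) scale. The WT spread was widened by replicates 3 and 5, at 30.3 and 37.8 FPKM. The 3′ ends of Nr1d1 and of Thra, a thyroid hormone receptor gene on the opposite strand, share 263 bases, 8.55% of the exonic bases of Nr1d1. The library kit does not mark strand, so fragments from that stretch cannot be told apart. Thra itself was at 15.8 ± 2.31 FPKM in HIF2 and 13.7 ± 1.15 FPKM in WT (log2 difference 0.19, limma adjusted p = 0.109).

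Nr1d2 (chr14:18204054-18239127, minus strand) encodes REV-ERBβ, which shares the DNA element and the repressor function of REV-ERBα. It was the most abundant of the 8 transcripts per length in both groups. HIF2 libraries lay between 17.1 and 33.9 FPKM with a median of 30.0, and WT libraries between 35.7 and 52.6 FPKM with a median of 40.4. The groups did not overlap, which held for 1.27% of all genes tested with HIF2 below WT. The means were 26.8 ± 6.47 and 42.1 ± 5.11 FPKM in HIF2 and WT (SD, n = 9 each), a log2 difference of -0.66 (SE 0.13). Within HIF2, replicates 6, 7 and 0 formed the low end at 17.1, 17.9 and 20.5 FPKM, and the other 6 libraries lay between 28.9 and 33.9 FPKM.

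Among the period genes, Per3 (chr4:151003652-151044665, minus strand) differed most. PER3 binds the same partners as the other PER proteins, but mice lacking it keep their rhythm. HIF2 libraries lay between 1.87 and 11.0 FPKM with a median of 6.65, against 8.52 to 21.2 FPKM with a median of 12.2 in WT. All but HIF2 replicates 5 and 8 were below the lowest WT library. The means were 6.68 ± 2.79 FPKM in HIF2 and 13.2 ± 4.35 FPKM in WT (SD, n = 9 each), a log2 difference of -0.93 (SE 0.23). Per2 (chr1:91415982-91459324, minus strand) encodes a core PER protein without which the mouse rhythm is lost or shortened. Its HIF2 values ran between 3.36 and 10.5 FPKM with a median of 7.69, and its WT values between 6.63 and 24.1 FPKM with a median of 11.1. Here 4 HIF2 libraries were below the lowest WT library and 5 lay inside the WT range. The mean was 7.22 ± 2.60 FPKM in HIF2 and 12.5 ± 5.65 FPKM in WT (SD, n = 9 each), a log2 difference of -0.68 (SE 0.24).

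Per1 (chr11:69095217-69109960, plus strand) encodes the PER protein whose gene responds fast to glucocorticoids and cAMP. It lay between 3.41 and 14.6 FPKM in HIF2, with a median of 5.14, and between 3.23 and 9.73 FPKM in WT, with a median of 7.08. Of the HIF2 libraries, 8 were inside the WT range and replicate 0 was above it. The log2 difference was -0.16 (SE 0.21). HIF2 replicate 0 held the highest Per1 value of all 18 libraries and the lowest Per3 and Per2 values.

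The cryptochromes, flavoproteins that carry most of the repressor activity of the PER-CRY complex, overlapped in range between the groups. Cry1 (chr10:85131700-85185064, minus strand) lay between 6.15 and 12.1 FPKM in HIF2, with a median of 7.98, and between 4.57 and 10.1 FPKM in WT, with a median of 7.39. HIF2 replicate 0 alone exceeded the WT range, and the log2 difference was 0.18 (SE 0.13). Cry2 (chr2:92403646-92434043, minus strand) lay between 3.42 and 7.98 FPKM in HIF2, with a median of 4.90, and between 3.07 and 8.28 FPKM in WT, with a median of 5.72. All 9 HIF2 libraries were inside the WT range, and the log2 difference was -0.13 (SE 0.17). Cry2 shares 295 exonic bases, 4.67% of its own, with D930015M05Rik on the opposite strand.

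Rora (chr9:68653786-69388246, plus strand) encodes RORα, the activator at the REV-ERB element, and was the lowest of the 8 transcripts per length in both groups. It lay between 0.654 and 4.95 FPKM in HIF2, with a median of 2.49, and between 0.206 and 2.11 FPKM in WT, with a median of 0.408. HIF2 replicates 0 to 4 were above the highest WT library, and the other 4 lay inside the WT range. The mean was 2.29 ± 1.31 FPKM in HIF2 and 0.839 ± 0.694 FPKM in WT (SD, n = 9 each), a log2 difference of 0.82 (SE 0.25). At these levels the added 1 FPKM shrinks the difference, which was 1.45 with an added 0.1 FPKM.

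Libraries rich in smooth muscle RNA mostly held more Rora, with exceptions given below. Smooth muscle cells form the muscle layers of the colon wall. Summed over 12 smooth muscle markers, such as Acta2 and Myh11, HIF2 libraries held between 69.3 and 3452 FPKM with a median of 2653, and WT libraries between 34.5 and 1133 FPKM with a median of 85.1. Of these markers 11 passed the test as higher in HIF2. HIF2 replicates 0 to 5 held at least 1402 FPKM of marker RNA and between 2.02 and 4.95 FPKM of Rora. HIF2 replicates 6, 7 and 8 held 152, 182 and 69.3 FPKM of marker RNA and 1.34, 0.654 and 0.835 FPKM of Rora. Among WT libraries, replicate 3 had the most marker RNA, 1133 FPKM, and the most Rora, 2.11 FPKM. WT replicate 8 held 1.84 FPKM of Rora at 182 FPKM of marker RNA, where HIF2 replicate 7 held 0.654 FPKM. Within HIF2 replicates 0 to 5, replicate 0 had the least marker RNA, 1402 FPKM, and the most Rora, 4.95 FPKM. Replicate 5 had the most marker RNA, 3452 FPKM, and the least Rora, 2.02 FPKM. Mean fibroblast and endothelial marker levels in WT were also highest in replicates 3 and 8. With the mean smooth muscle marker level as a covariate, the log2 difference of Rora was 0.18 (SE 0.23). Between HIF2 replicates 6 to 8 and the 8 WT libraries other than replicate 3 it was 0.25 (SE 0.24), and without HIF2 replicates 6 to 8 it was 1.16 (SE 0.22). In bulk tissue, fewer cells of a type and less RNA per cell cannot be told apart.

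**Figure D2:**
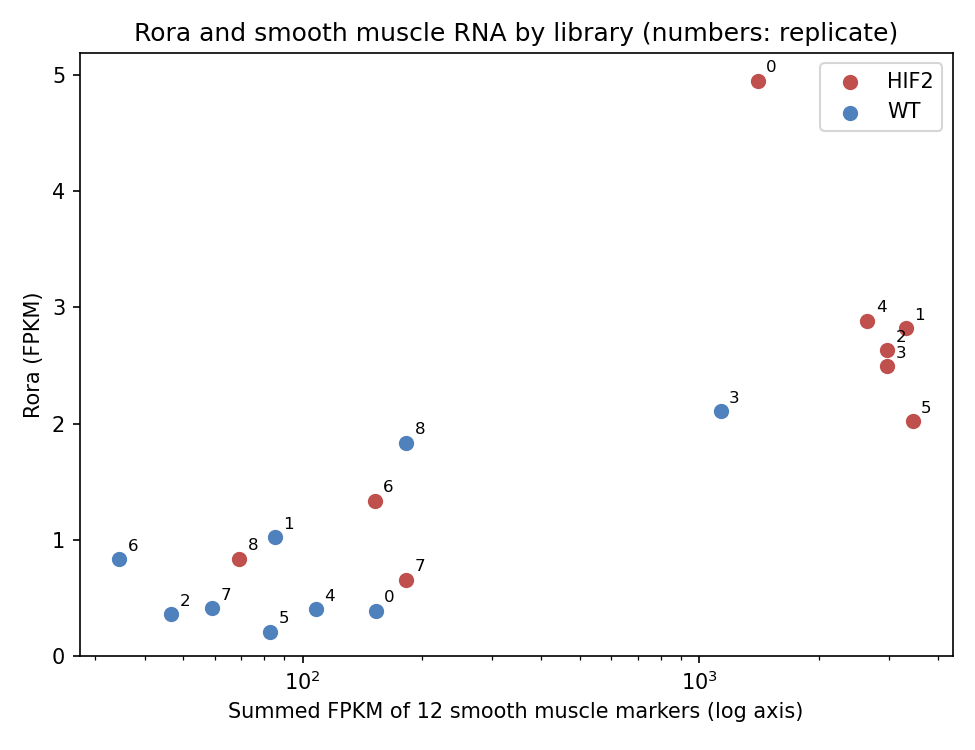
Rora in FPKM (linear axis) against the summed FPKM of 12 smooth muscle markers (log axis) in each library, HIF2 in red and WT in blue, with replicate numbers beside the points. The 6 HIF2 libraries at 1402 FPKM of marker RNA or more have 2.02 to 4.95 FPKM of Rora, and HIF2 replicates 6, 7 and 8 lie among the WT libraries on both axes. Among those 6, the library with the least marker RNA has the most Rora.

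The REV-ERB and period genes were fitted in the same settings. With the smooth muscle covariate the log2 difference was -1.06 (SE 0.19) for Nr1d1 and -0.89 (SE 0.15) for Nr1d2. In HIF2 replicates 6 to 8 against the 8 WT libraries it was -0.93 (SE 0.24) for Nr1d1 and -0.99 (SE 0.15) for Nr1d2. For Per3 the values in the same pair of settings were -0.90 (SE 0.31) and -0.76 (SE 0.29), and for Per2 they were -0.44 (SE 0.31) and -0.32 (SE 0.33). Without HIF2 replicates 6 to 8 the log2 difference was -0.67 (SE 0.17) for Nr1d1, -0.50 (SE 0.10) for Nr1d2, -1.01 (SE 0.26) for Per3 and -0.88 (SE 0.27) for Per2. Other cell types moved with the groups as well. Markers passed as higher in HIF2 for 6 of 6 fibroblast, 4 of 5 leukocyte, 4 of 4 endothelial and 2 of 2 enteric neuron and glia genes tested. Summed leukocyte markers held 21.6 to 37.6 FPKM in HIF2 and 6.94 to 18.9 FPKM in WT, without overlap. Epithelial markers were lower for 5 of 8 genes. Their sum lay between 4603 and 6982 FPKM in HIF2 and between 4800 and 6676 FPKM in WT, but it mostly follows Krt8. Krt8 alone averaged 3328 FPKM in HIF2 and 3211 FPKM in WT. Krt8 and Krt18 had higher means in HIF2, and all other epithelial markers had lower ones. The part of these cell types in the clock gene differences was not tested.

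Ordered by mean FPKM, HIF2 colon had Nr1d2 first, then Nr1d1, Cry1, Per2, Per3, Per1, Cry2 and Rora. The steps between Cry1 and Cry2 along this order were smaller than 1 SD of the difference within libraries. The order in WT colon was Nr1d2, Nr1d1, Per3, Per2, Cry1, Per1, Cry2 and Rora. The WT steps larger than that SD were those between Nr1d2 and Nr1d1, between Per2 and Cry1 and between Cry2 and Rora. Per2 exceeded Cry1 in 9 of 9 WT libraries, by 5.14 ± 4.40 FPKM (SD). Cry1 exceeded Per2 in 5 of 9 HIF2 libraries, and the mean difference over all 9 was 1.14 ± 4.07 FPKM (SD).

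Genes that act with or under the 8 were taken from 7 lists of the clock pathway, 33 genes in all, of which 28 were expressed enough to test. Of these, 2 rose, 5 fell and 21 did not pass (limma, adjusted over all 13976 genes), with a median log2 difference of -0.12 against -0.02 over all genes tested. The 7 genes that passed make up 25.0% of the 28, near the 22.1% of all genes tested, and the lists were chosen with results of these data known, so nothing is called particular to the pathway. The genes that fell were Dbp, Tef, Ciart, Nampt and Usp2, and those that rose were Npas2 and Nfil3.

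**Figure D3:**
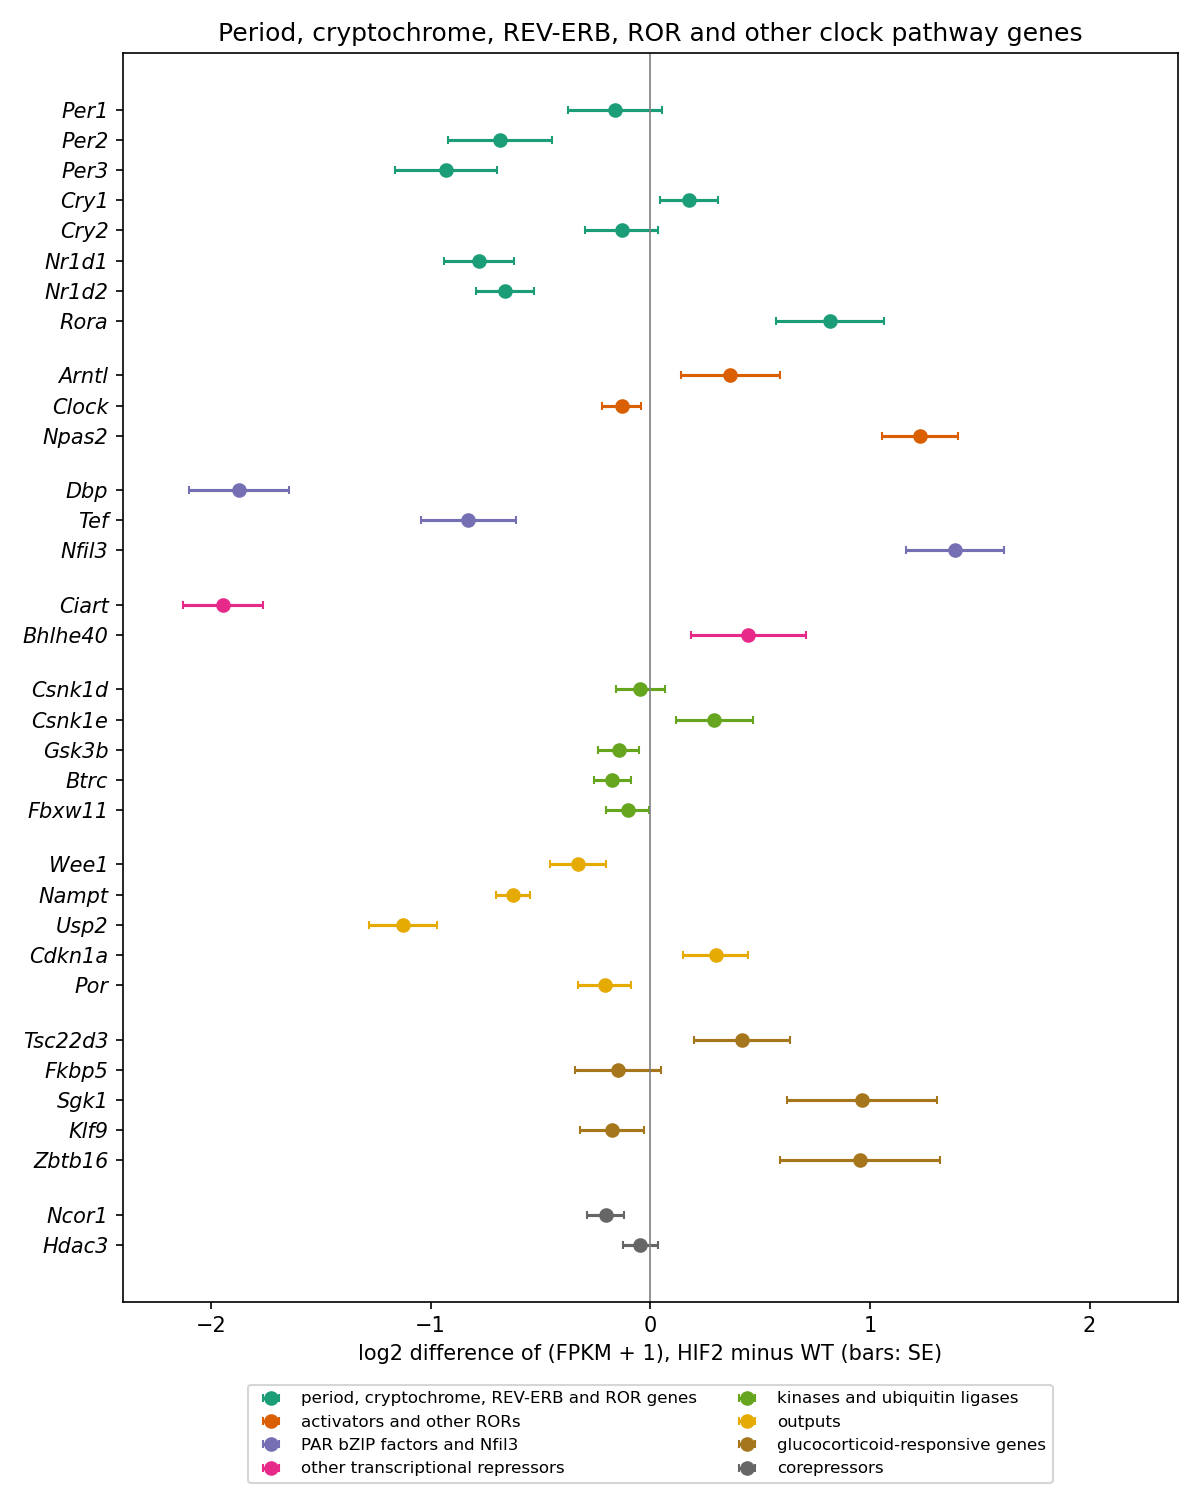
Log2 difference of (FPKM + 1), HIF2 minus WT, for the 8 clock genes at the top and 25 of the 28 tested genes of 7 clock pathway lists under them, with the SE as bars, n = 9 libraries a group. Dbp and Ciart lie farthest to the left at -1.87 and -1.95, and Npas2 and Nfil3 farthest to the right at 1.23 and 1.39, while the kinases, ubiquitin ligases and corepressors drawn lie between -0.20 and 0.29.

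Among the activators and other ROR genes, 1 of 4 tested passed. Npas2, which stands in for CLOCK as partner of BMAL1, lay between 4.70 and 14.1 FPKM in HIF2, with a median of 9.87, and between 2.19 and 4.21 FPKM in WT, with a median of 3.70. The groups did not overlap, as for 0.758% of all genes tested with HIF2 above WT. Npas2 rose by 1.23 on the log2 scale (SE 0.17, limma adjusted p = 0.000122). Arntl itself was 9.82 ± 4.70 FPKM in HIF2 and 7.04 ± 2.23 FPKM in WT (SD, n = 9 each), and its log2 difference of 0.36 (SE 0.23) did not pass (limma adjusted p = 0.280). Clock was 23.4 ± 3.94 FPKM in HIF2 and 25.5 ± 2.56 FPKM in WT, with a log2 difference of -0.13 (limma adjusted p = 0.341). Without HIF2 replicates 0 to 5 and WT replicate 3 it passed as lower, at -0.30 (SE 0.07, limma adjusted p = 0.0118). Rorb and Arntl2 were below the filter.

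The PAR bZIP factors DBP and TEF activate through the D-box, and NFIL3 represses through it. All 3 tested genes of this list passed, Dbp and Tef as lower and Nfil3 as higher in HIF2, where 22.1% of all genes tested passed. The list was chosen with results of these data known, so nothing is read from that count. Dbp, a direct E-box target, lay between 1.12 and 9.95 FPKM in HIF2 with a median of 3.99, and between 13.0 and 20.2 FPKM in WT with a median of 19.0. The groups did not overlap, and Dbp fell by 1.87 on the log2 scale (SE 0.23, limma adjusted p = 2.69e-05). Of its 2993 exonic bases, 539 are shared with Sphk2 on the opposite strand. Tef averaged 21.4 ± 9.16 FPKM in HIF2 and 36.7 ± 8.57 FPKM in WT (SD, n = 9 each), and fell by 0.83 (SE 0.22, limma adjusted p = 0.00985). That call was lost with the smooth muscle covariate (-0.67, limma adjusted p = 0.125) and without HIF2 replicates 0 to 5 and WT replicate 3 (-0.64, limma adjusted p = 0.0566). Nfil3 lay between 3.63 and 19.5 FPKM in HIF2 with a median of 4.88, and between 0.821 and 2.26 FPKM in WT with a median of 1.51. Its groups did not overlap, and it rose by 1.39 (SE 0.22, limma adjusted p = 0.000369). Hlf, another PAR bZIP gene of this list, was below the filter and went the other way from Dbp and Tef. Its median was 1.16 FPKM in HIF2 and 0.235 FPKM in WT, with 3 HIF2 libraries above the highest WT library. DBP, TEF and NFIL3 read the D-box, the motif present at both -205 and -158 in the Per3 promoter shown above. Any link between these factors and the Per3 level was not tested.

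Of the other repressors, Ciart, whose protein blocks CLOCK-BMAL1, fell by 1.95 (SE 0.18, limma adjusted p = 2.54e-06). It lay between 0.682 and 4.64 FPKM in HIF2 with a median of 1.72, and between 7.63 and 11.8 FPKM in WT with a median of 9.99, without overlap. Bhlhe40, an E-box repressor and a known hypoxia target, was 59.0 ± 30.4 FPKM in HIF2 and 38.0 ± 5.01 FPKM in WT (SD, n = 9 each) and did not pass (log2 difference 0.45, SE 0.26, limma adjusted p = 0.251). It passed, at 0.999 (SE 0.14, limma adjusted p = 0.000493), when HIF2 replicates 0 to 5 and WT replicate 3 were left out.

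Among clock outputs, 2 of 5 fell. Nampt, the rate-limiting enzyme of NAD salvage and an E-box target, lay between 21.7 and 29.2 FPKM in HIF2 and between 33.5 and 46.1 FPKM in WT, without overlap. It fell by 0.62 (SE 0.08, limma adjusted p = 3.09e-05). Usp2, a deubiquitinating enzyme under clock control, averaged 2.86 ± 0.943 FPKM in HIF2 and 7.37 ± 1.78 FPKM in WT (SD, n = 9 each) and fell by 1.12 (SE 0.16, limma adjusted p = 0.000106). For the cell cycle kinase gene Wee1 the log2 difference was -0.33 (SE 0.13, limma adjusted p = 0.0719), for Cdkn1a 0.30 (SE 0.15, limma adjusted p = 0.166) and for Por -0.21 (SE 0.12, limma adjusted p = 0.240). With the smooth muscle covariate Wee1 passed as lower, at -0.54 (limma adjusted p = 0.0240), and Cdkn1a as higher, at 0.63 (limma adjusted p = 0.0114). Without HIF2 replicates 0 to 5 and WT replicate 3 both passed too, Wee1 at -0.47 (limma adjusted p = 0.0394) and Cdkn1a at 0.72 (limma adjusted p = 0.000526).

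In the other lists 0 genes passed, in limma as in an exact rank test. Of the 6 tested genes of kinases and ubiquitin ligases that set PER and CRY stability, 0 had an unadjusted limma p under 0.05. The casein kinase genes Csnk1d and Csnk1e were at -0.04 and 0.29, and Gsk3b, Btrc and Fbxw11 were at -0.14, -0.17 and -0.10. Of the 3 REV-ERB corepressor genes tested, 1 had an unadjusted limma p under 0.05. Ncor1 was at -0.20 and Hdac3 at -0.05. Of 5 glucocorticoid-responsive genes, 2 had an unadjusted limma p under 0.05. Sgk1 was at 0.96 (SE 0.34, limma adjusted p = 0.0507) and Zbtb16 at 0.95 (SE 0.36, limma adjusted p = 0.0676), and Tsc22d3, Fkbp5 and Klf9 were at 0.42, -0.15 and -0.17. Sgk1 passed with the smooth muscle covariate, at 1.89 (SE 0.31, limma adjusted p = 0.000748), and under 9 other settings. Zbtb16 was at 0.00039 with that covariate and at -0.03 without HIF2 replicates 0 to 5 and WT replicate 3, and passed as higher (limma adjusted p = 0.00242) without HIF2 replicates 6 to 8. Klf9 passed as lower without HIF2 replicates 0 to 5 and WT replicate 3, at -0.66 (limma adjusted p = 0.00316). Epas1 was 22.7 ± 6.36 FPKM in HIF2 and 18.8 ± 3.09 FPKM in WT (SD, n = 9 each), a log2 difference of 0.24 (SE 0.14, limma adjusted p = 0.246). Epas1 thus did not pass, although the HIF2 mice are described as overexpressing HIF2. Since the structure of the altered allele is not stated, whether its RNA counts toward Epas1 is unknown.

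The activator Arntl is the target of REV-ERB and ROR proteins, so each of the 8 genes was set against it within each group, 16 relations in all. None had an adjusted p under 0.05, by Pearson or by Spearman correlation, from exact permutation tests over all 362880 pairings. Without adjustment 2 were under 0.05 by Pearson and 4 by Spearman. Cry2 in HIF2 had the largest Pearson r, -0.83 (Spearman rho -0.72; exact permutation p = 0.00598 and 0.0369, adjusted 0.0957 and 0.147, n = 9), and r was -0.67 without HIF2 replicates 2 and 8 and -0.80 within HIF2 replicates 0 to 5. Per2 in HIF2 had r -0.67 (rho -0.75; exact permutation p = 0.0470 and 0.0255, adjusted 0.376 and 0.147, n = 9), and r was -0.36 without replicates 2 and 8 and -0.51 within replicates 0 to 5. For the REV-ERB genes and Arntl, r was 0.07 in HIF2 and 0.10 in WT for Nr1d1, and 0.25 in HIF2 and -0.27 in WT for Nr1d2. Without HIF2 replicate 0 or without HIF2 replicate 3, 1 relation passed, that of Per2 (r -0.91, exact permutation adjusted p = 0.0226) or of Cry2 (r -0.92, exact permutation adjusted p = 0.0167).

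Relations among the 8 genes themselves, 28 pairs in each group, were computed after their values had been seen. In HIF2 2 pairs had an adjusted Pearson p under 0.05, and in WT 8 pairs did (exact permutation tests, adjusted over 56 relations). No pair in either group passed by Spearman correlation, where 3 in HIF2 and 11 in WT were under 0.05 without adjustment. The median r over the pairs was 0.12 in HIF2 and 0.56 in WT. Per2 and Per3 were related in both groups, with r 0.80 in HIF2 (rho 0.68; exact permutation p = 0.00512, adjusted 0.0364, n = 9) and r 0.95 in WT (rho 0.92; exact permutation p = 0.000165, adjusted 0.00926, n = 9). Without the libraries farthest from the Per2 median, r was 0.49 in HIF2 and 0.84 in WT. Within replicates 0 to 5 it was 0.87 in HIF2 and 0.76 in WT. The other HIF2 pair was Cry1 and Rora, with r 0.91 (rho 0.80; exact permutation p = 0.000984, adjusted 0.0275, n = 9), and r was 0.80 without the libraries farthest from the Cry1 median and 0.89 within replicates 0 to 5. In WT, Cry1 and Cry2 had r 0.88 and Per3 and Nr1d2 r 0.87 (both exact permutation adjusted p = 0.0299, n = 9). Within WT replicates 0 to 5 these fell to 0.46 and 0.48. The 8 WT pairs ran there between 0.35, for Per3 and Cry1, and 0.76, for Per2 and Per3. Over the 8 WT pairs, the lowest r with 1 library left out was 0.73, for Per2 and Nr1d2, and it was 0.91 for Per2 and Per3, while the number of pairs past the adjusted threshold depended on single libraries. Leaving out WT replicate 8, which had the highest Per1, Per2, Per3, Cry1 and Nr1d2 values of the WT group, left 0 pairs. Leaving out WT replicate 6, lowest of the WT group for Per1, Per2, Per3, Cry1 and Cry2, left 1 pair, and leaving out WT replicate 7 or 2 left 2 or 5. Without the 2 libraries farthest from the median of the first gene, 0 pairs passed in HIF2 and 0 in WT. Cry1 and Per2 had r -0.75 in HIF2 and 0.77 in WT, and this difference was not tested. Without HIF2 replicate 0 the HIF2 value was -0.55.

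**Figure D4:**
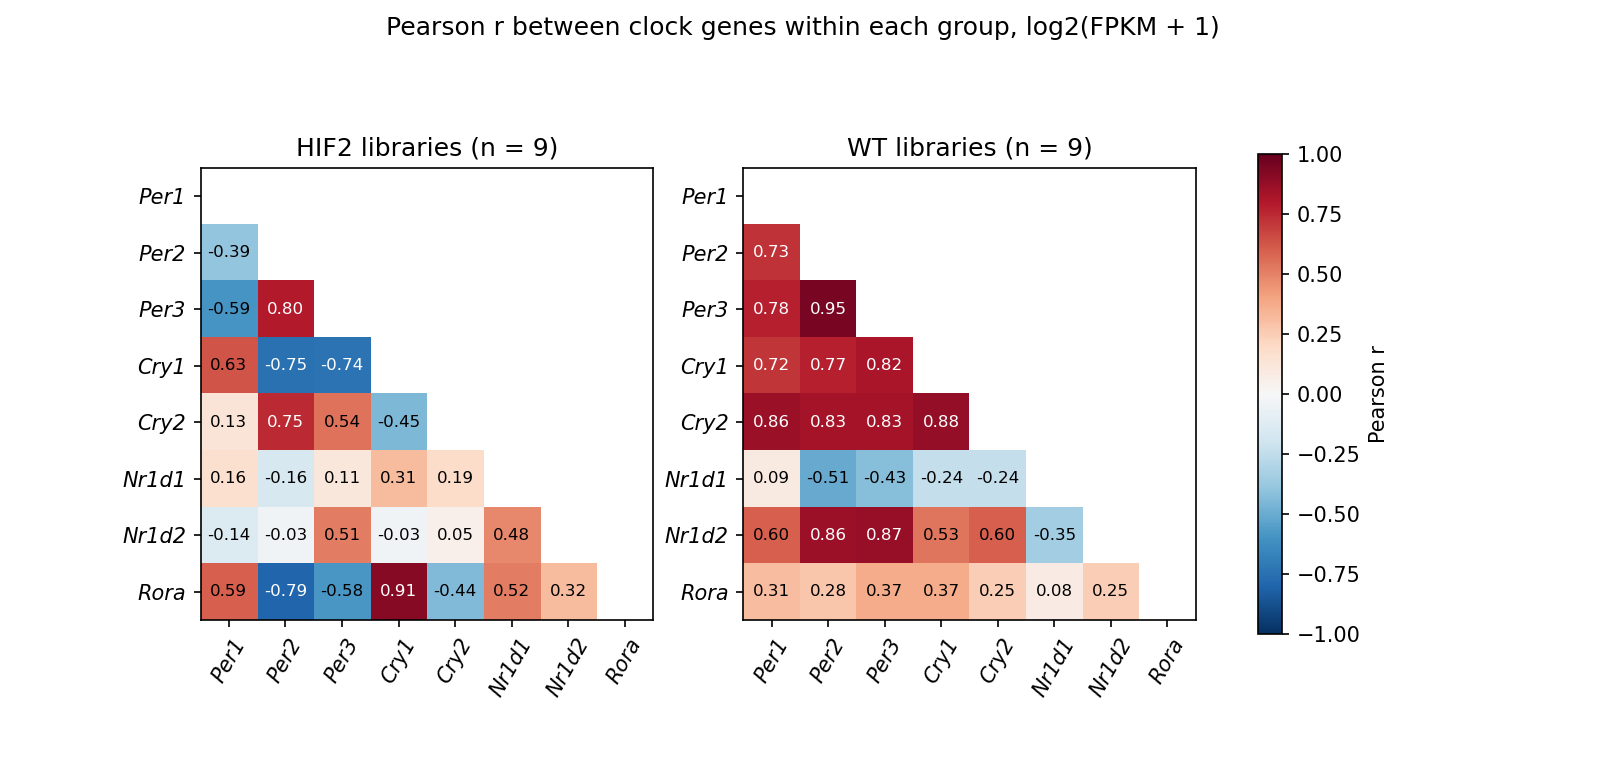
Pearson r of log2(FPKM + 1) between each pair of the 8 clock genes over the 9 HIF2 libraries (left) and the 9 WT libraries (right), on a color scale from -1 to 1. In WT the squares among Per1, Per2, Per3, Cry1 and Cry2 are all positive, at 0.72 to 0.95, and in HIF2 Cry1 is at -0.75 and -0.74 with Per2 and Per3.

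The genes most like each of the 8 were ranked by Pearson r over the 18 libraries after each group mean had been subtracted, as a description without a test. Most like Per3 were Tef, r 0.88, Dbp, r 0.86, and Adcy6, r 0.86, and among those most like Per2 were Tef, r 0.86, and Pdxk, r 0.84. Lowest for Per2 were Hmgb2, r -0.85, Ccna2, r -0.84, and Sgol1, r -0.83, genes of dividing cells, and lowest for Cry2 were Ccna2, r -0.86, Ccnb1, r -0.85, and Cebpz, r -0.83. Nr1d2 was nearest to Slc9a3, the apical sodium-proton exchanger of absorptive cells, r 0.86, and farthest from Hnrnpk, r -0.93. Nr1d1 was nearest to Ocrl, r 0.75. Rora was nearest to Itpkb, Pla2r1 and Dab2, each at r 0.92. Per1 was nearest to Camkk2, r 0.89, and farthest from Ddc, r -0.91. Cry1 was nearest to Msmp, r 0.86, and Cry2 to Terf2, r 0.88. All values come from the same 18 libraries, so differences in tissue makeup between libraries enter each r.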

How the data were processed

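The 8 genes and all gene and marker lists were chosen with earlier results of these data known. The deposited table holds FPKM values (fragments mapped to a gene, scaled by its transcript length and by library size), 1 column for each of 18 libraries, and every column was used. Per the submitters' processing notes, the authors used TopHat and TopHat2 2.0.9, Bowtie2 2.1.0.0, Cufflinks and Cuffdiff 2.1.1, and FastQC, with the mm10 build and no roles stated. Libraries were made with a TruSeq RNA kit (version 2) from fresh or frozen tissue, per the labels' protocols. Read depth is unknown, so no counting interval is given. FPKM sums lay between 686539 and 937505 and upper quartiles between 8.86 and 9.14 per library. The highest correlation between libraries was 0.931, so none were treated as duplicates.

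Values were taken as log2(FPKM + 1), a scale that shrinks differences at low levels. The 13976 of 27131 genes whose mean reached 1 FPKM were fitted with limma 3.58.1 in R 4.3.3 (trended prior, two-sided, Benjamini-Hochberg over all genes), which was tested on simulated data. Correlations within a group used exact permutation tests over 9 libraries. The named genes are the 8 genes, every gene of the 7 clock lists, Epas1, and for each of the 8 the 3 genes with the highest and the 3 with the lowest correlation, a part of which is reported. Some genes of these lists are counted but not reported here by name. Thra and Sphk2 were named after their overlap was seen, and the overlapping D930015M05Rik likewise. Ciart is listed under its older name Gm129. Gene positions are from GENCODE M21 on GRCm38, the assembly that mm10 names, and promoters from RefSeq. Alternatives were another pseudocount and filter, no filter, 3 scalings, a replicate block, array weights, a robust prior, an exact rank test, sex-linked and smooth muscle covariates, subsets of libraries and each library left out. Leaving out HIF2 replicate 0 together with WT replicate 3, and all alternatives for pairs of the 8 genes, were added after the data were seen.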

Additional observations from a re-analysis of the deposited data

Results flagged for a closer look

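In 72 groups of 9 libraries, the highest or lowest library was compared with its nearest neighbour by Dixon's gap test on the log2 scale. This test marks about 1 group in 20 by chance, and it marked 5. HIF2 replicate 0 accounted for 3 of them. Its Per1 value of 14.6 FPKM was the highest of 9, with the next HIF2 library at 6.69. Its Per3 value of 1.87 FPKM was the lowest, with the next at 4.94. Its Nfil3 value of 19.5 FPKM was the highest, with the next at 7.11. In WT, Clock was lowest in replicate 3 at 20.1 FPKM, with the next at 24.0, and Klf9 was highest in replicate 5 at 30.3 FPKM, with the next at 23.9. Without HIF2 replicate 0 and WT replicate 3 together, the log2 difference was -0.76 (SE 0.19) for Per3, -0.30 (SE 0.18) for Per1 and 1.23 (SE 0.13, limma adjusted p = 1.37e-05) for Nfil3.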

How the results depend on the processing

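Npas2, Dbp, Ciart, Nampt and Usp2 passed in 33 of 33 alternative settings and Nfil3 in 32 of 32. Among the 8 genes, Per2 was past the threshold in 16 of 32 settings and Per3 in 30 of 32. Nr1d1 and Nr1d2 were past it in 32 of 32, and Rora in 28 of 31. All settings refit the same libraries, and the 8 genes and the lists were chosen with results of these data known. The counts therefore describe the settings only, and nothing is read from them. Rora moved to 1.45 with an added 0.1 FPKM, 0.18 with the smooth muscle covariate and 0.25 without HIF2 replicates 0 to 5 and WT replicate 3, and Nr1d2 moved to -0.99 in that last setting. Of the 8 genes, 0 were called higher with a filter at 5 FPKM, where Rora was not tested, and 0 with the block, the covariate and that subset. With the covariate and in the subset 2 were called lower. Over all genes 1531 were higher and 1557 lower, against 640 higher with the filter at 5 FPKM, 2407 higher without a filter, and 960 higher and 1027 lower with the covariate. Of the other clock genes, the count higher was 1 with the filter at 5 FPKM, 4 with array weights, 4 with the covariate and 5 in the subset, where 8 were lower, and with each library left out it ran between 2 and 5 (5 without HIF2 replicate 2). The same replicate numbers occur in both groups. Deviations of same-numbered libraries correlated between -0.033 and 0.112, over 0.1 in 1 of 9 pairs, and 1 HIF2 library correlated best with its own number. No pairing by number was seen in these values. Differences in tissue makeup enter them too, so they cannot decide whether the numbers pair the libraries. With replicate number as a block, 1355 genes were higher and 1345 lower. Relations with Arntl that passed ran between 0 and 1 with each library left out. For Nr1d1, r with Arntl turned to -0.22 in HIF2 and -0.25 in WT without the 2 farthest libraries, to -0.57 in HIF2 without replicates 6 to 8, and to -0.033 in WT with quantile normalization. With each library left out it ran between -0.15 and 0.44 in HIF2 and between -0.63 and 0.51 in WT. For Per1 in HIF2 that range was -0.42 to 0.045, and for Cry1 in HIF2 r was -0.064 without replicates 6 to 8. Pairs of the 8 genes that passed ran between 1 and 3 in HIF2 and between 0 and 10 in WT with each library left out, with 0 in both groups without the 2 farthest libraries and 0 in HIF2 without replicates 6 to 8. Except where a setting removes libraries or genes, the cause was not tested. Depth is unknown, so the counting error behind each level could not be given.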
